A study of Mus musculus with 4 samples.

Results

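The genes described here are the transcription factor NRF2 (gene Nfe2l2), its inhibitor Keap1, the repressors Bach1 and Bach2, and 6 antioxidant target genes (Hmox1, Nqo1, Gclc, Gclm, Txnrd1 and Srxn1). They are 10 of 20923 mouse protein-coding genes with curated RefSeq transcripts, and they were chosen by name for their place in 1 pathway. A SMAD4 peak was counted at a gene when its summit, the position of highest signal, lay in the gene body or within 50 kb of a transcription start site (TSS) of that gene. This placed 16 of the 16369 peaks of replicate 1 and 29 of the 19015 peaks of replicate 2 at the 10 genes, and 12 regions in which peaks of both replicates overlapped by at least 1 bp, out of 10964 such shared regions in the genome.

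The cells were alveolar macrophages (AMs) of wild-type mice, which were washed out of the lung airways by bronchoalveolar lavage and sorted by flow cytometry. Binding was measured by HT-ChIPmentation, in which a transposase adds the sequencing adapters to chromatin fragments that are still held by the antibody, here a combination of antibodies to SMAD4. The series holds 2 SMAD4 immunoprecipitations and 2 inputs (prepared without the antibody), and the inputs served as the control when peaks were called. There was 1 condition, so that no comparison between treatments or genotypes was possible, and the values below are descriptions set beside the same quantity over all genes or all peaks. The labels do not say whether the replicates came from separate animals, and their spread may be technical.

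NRF2 is made continuously and destroyed at once in resting cells, because KEAP1 hands it to the CUL3 ubiquitin ligase. Oxidants and electrophiles modify cysteines of KEAP1, NRF2 escapes, pairs with small MAF proteins and binds the antioxidant response element (ARE) of genes for haem breakdown, glutathione synthesis and thioredoxin reduction. BACH1 and BACH2 pair with the same MAF proteins on similar elements and repress them, and haem releases BACH1 from DNA. SMAD4 is the common partner of the receptor-activated SMADs and carries TGFβ signals, on which AMs depend, into the nucleus.

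The sequences around the SMAD4 summits at these genes are shown first. They are from mm10 (RefSeq GRCm38), plus strand, 5′ to 3′, 100 bp each side of the mean summit, and capitals mark matches to the motif strings described further on. The windows of Nfe2l2 (upstream region), Bach1 and Gclc are those of the strongest shared region nearest to each gene, and the window of Txnrd1 is a peak in its promoter. A further Nfe2l2 window and the Bach2 window are shown because they hold an ARE or an NF-E2/MAF string, and the 250 bases before the Srxn1 TSS because they hold such a string and no peak lay near that gene in either replicate. These last 3 were chosen after their values were seen.
Nfe2l2 upstream region, chr2:75731159-75731359: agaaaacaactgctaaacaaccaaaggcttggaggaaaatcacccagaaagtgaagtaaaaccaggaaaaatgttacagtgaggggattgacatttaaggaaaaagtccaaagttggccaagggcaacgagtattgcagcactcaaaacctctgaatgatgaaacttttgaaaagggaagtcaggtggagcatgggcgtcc
Nfe2l2 region with the antioxidant response string, chr2:75716500-75716700: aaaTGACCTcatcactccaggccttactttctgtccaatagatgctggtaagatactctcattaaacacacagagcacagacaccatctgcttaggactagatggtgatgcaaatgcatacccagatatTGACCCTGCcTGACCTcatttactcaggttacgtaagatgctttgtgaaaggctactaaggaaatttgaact
Bach1 intron region, chr16:87699769-87699969: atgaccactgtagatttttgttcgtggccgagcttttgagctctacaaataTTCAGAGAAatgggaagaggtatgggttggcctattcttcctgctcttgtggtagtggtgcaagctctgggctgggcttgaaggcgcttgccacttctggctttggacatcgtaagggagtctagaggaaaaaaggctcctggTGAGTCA
Bach2 intron region, chr4:32570068-32570268: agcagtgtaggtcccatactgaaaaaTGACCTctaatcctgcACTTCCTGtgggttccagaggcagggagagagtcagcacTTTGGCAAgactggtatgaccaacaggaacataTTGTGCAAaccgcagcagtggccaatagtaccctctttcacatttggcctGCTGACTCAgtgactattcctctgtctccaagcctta
Gclc upstream region, chr9:77709057-77709257: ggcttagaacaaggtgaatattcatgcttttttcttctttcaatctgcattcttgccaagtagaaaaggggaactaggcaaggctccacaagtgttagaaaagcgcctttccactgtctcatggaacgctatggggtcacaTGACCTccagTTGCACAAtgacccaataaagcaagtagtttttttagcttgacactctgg
Txnrd1 promoter peak of replicate 2, chr10:82860069-82860269: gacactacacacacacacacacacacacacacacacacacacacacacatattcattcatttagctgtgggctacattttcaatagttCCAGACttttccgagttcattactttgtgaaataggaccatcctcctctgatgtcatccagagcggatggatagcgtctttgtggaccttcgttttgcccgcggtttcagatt
Srxn1 promoter, chr2:152105274-152105523: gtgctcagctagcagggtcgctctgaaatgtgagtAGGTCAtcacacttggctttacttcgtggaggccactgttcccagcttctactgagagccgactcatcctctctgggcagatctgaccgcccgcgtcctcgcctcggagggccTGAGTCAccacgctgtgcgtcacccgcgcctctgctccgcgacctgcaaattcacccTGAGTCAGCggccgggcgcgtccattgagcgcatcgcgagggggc

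Nfe2l2 had more SMAD4 peaks and shared regions than any other of these genes. It had 7 peaks in replicate 1, 8 in replicate 2 and 5 shared regions, all 5 nearest to its own TSS. Among all protein-coding genes, 3.33% had 5 or more shared regions in their window and 1.28% had 5 or more that were nearest to them. Bach2 and Hmox1 had 2 shared regions each, and Bach1, Gclc and Txnrd1 had 1. Keap1 had no peak in replicate 1 and 1 in replicate 2, Gclm had none in replicate 1 and 4 in replicate 2, and no peak was called at Nqo1, the quinone reductase gene, or at Srxn1, which encodes sulfiredoxin, in either replicate.

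**Figure D1:**
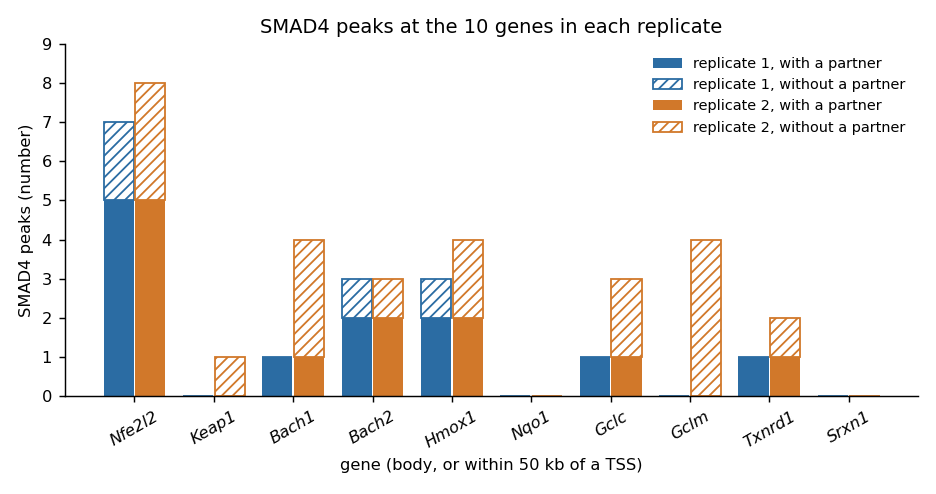
Number of SMAD4 peaks (vertical axis) at each of the 10 genes (horizontal axis), with blue bars for replicate 1 and orange bars for replicate 2, filled where the peak overlapped one of the other replicate and hatched where it did not. Nfe2l2 stands highest with 7 and 8 peaks, while Keap1 and Gclm have hatched bars of replicate 2 alone, and Nqo1 and Srxn1 have none.

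By gene, 6 of the 10 had at least 1 shared region, where 39.1% of all protein-coding genes did. For 4 of the 10 (Nfe2l2, Bach1, Hmox1 and Gclc) at least 1 shared region had that gene's TSS as the closest of any gene, where 20.0% of all genes did. Since a longer gene has a wider window, genes with a window of exactly 50 kb each side were also taken alone. Of the 8 members with such a window 4 had a shared region, where 35.4% of 13898 genes did. In replicate 1 alone, 6 of the 10 genes had a peak (46.6% of all genes), and in replicate 2 alone 8 did (53.4%). A peak in replicate 2 with none in replicate 1 was found at 2 of the 10 (Keap1 and Gclm), compared with 11.6% of all genes. With so few genes, a count of 1 more or less moves these shares by 10 points, and no test was made.

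The windows of the 10 genes together covered 1.15 Mb and held 10.5 shared regions per Mb, against 4.16 per Mb over the genome. The genome figure includes sequence far from genes, and the density over the windows of all genes was not computed. The windows of 13 marker genes of other cell types, described below, held 10.7 per Mb. Of these 12 regions, 5 lay at Nfe2l2.

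The strongest SMAD4 region at these genes lay upstream of Nfe2l2, in intergenic sequence at chr2:75730912-75731631, with its summit at -26596 bp from the TSS (negative is upstream). Fold enrichment, the number of fragments stacked at the summit plus 1 over the control level plus 1, was 17.9 in replicate 1 and 34.7 in replicate 2, a mean of 26.3 ± 11.9 (SD, n = 2). This rested on 54 fragments in replicate 1 (exact 95% Poisson interval 40.6 to 70.5) and 76 in replicate 2 (59.9 to 95.1), which cover counting error only. By the smaller fold of the 2 replicates the region ranked 597 of the 10964 shared regions. The summit window printed above as the Nfe2l2 upstream region held none of the motif strings searched.

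Inside the gene, a region in intron 1 at chr2:75685296-75685971 (summit at 19015 bp from the TSS) had folds of 9.75 in replicate 1 and 18.8 in replicate 2, from 29 and 44 fragments. A second intron 1 region, close to the start of the gene at chr2:75702705-75703565 (1567 bp), had folds of 8.12 and 9.48, from 24 and 20 fragments. Both lay above the middle of all shared regions by the smaller fold, at percentiles 75.7 and 66.0. The other Nfe2l2 regions were weak in both replicates. The one at chr2:75682993-75683273 in intron 1 (21547 bp) had folds of 4.55 and 5.41 (percentile 14.7), and the intergenic one at chr2:75716461-75716712 (-11937 bp) had 4.77 and 6.77 (percentile 17.8).

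Nfe2l2 also had 5 peaks that were called in 1 replicate alone. The strongest of them was a replicate 2 peak in intron 1, only 557 bp from the TSS, with a fold of 13.5 and 29 fragments, and the nearest replicate 1 peak lay 412 bp away from it. It lay further downstream than the 100 bp that the promoter definition used here allows (1 kb upstream to 100 bp downstream of a TSS), so that no Nfe2l2 peak was counted in its promoter. The other single peaks had folds of 5.41 and 5.41 in replicate 2 and of 3.90 and 3.63 in replicate 1.

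**Figure D2:**
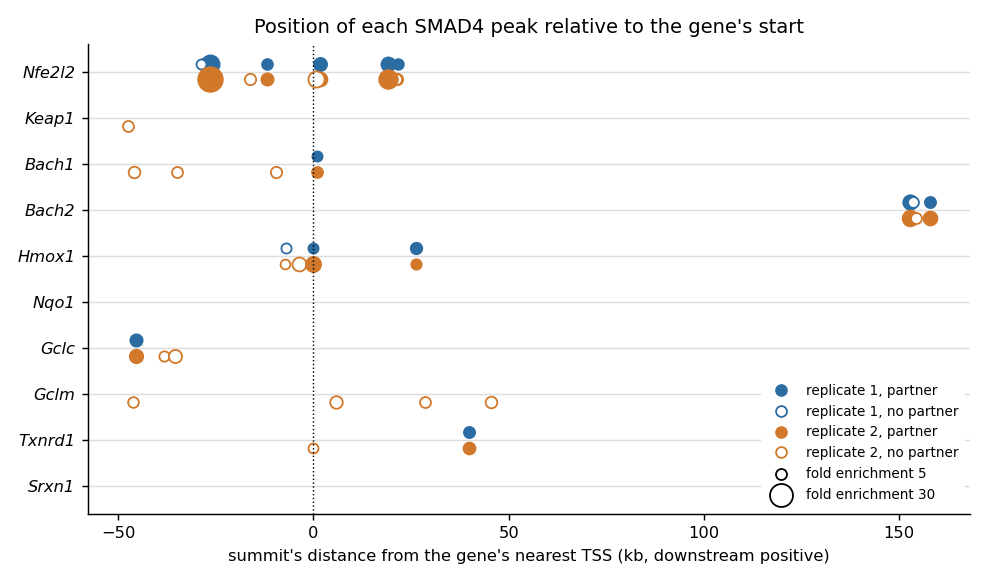
Distance of each peak's summit from the nearest TSS of its gene in kb (horizontal axis, downstream positive) for the 10 genes (rows), with blue circles for replicate 1 and orange for replicate 2, filled where the peak had a partner in the other replicate, and with circle area rising with fold enrichment. Nfe2l2 has filled circles on both sides of its start, Gclc only upstream, and Bach2 only deep in its gene body.

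Keap1, the adaptor that marks NRF2 for destruction, had a single peak in its window. It was a replicate 2 peak at chr9:21286642-21286875 with a fold of 4.96 and 10 fragments. The summit was -47462 bp from the Keap1 TSS and 1175 bp inside Kri1, whose TSS was the nearest, in intron 2 of that gene. No peak of either replicate had the Keap1 TSS as its nearest.

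Bach1, which represses Hmox1 until haem displaces it, had 1 shared region in its intron 1 at chr16:87699727-87699972, 915 bp from the TSS. Its fold was 3.90 in replicate 1 (11 fragments, 5.49 to 19.7) and 4.96 in replicate 2 (10 fragments, 4.80 to 18.4), a mean of 4.43 ± 0.75. This is at the weak end of the shared regions, at percentile 4.23 by the smaller fold. Replicate 2 had 3 more peaks upstream of Bach1, at -9539, -34964 and -45851 bp, with folds of 5.41, 4.96 and 5.87, and replicate 1 had no peak within 10 kb of any of them.

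Bach2, the other repressor, known from B cells and tissue macrophages, had its SMAD4 regions far from its TSS, in the later part of a long gene body. The stronger, at chr4:32569840-32570460 in intron 3 (152733 bp from the TSS), had folds of 10.4 in replicate 1 and 12.6 in replicate 2, from 31 and 27 fragments, and stood at percentile 78.7 by the smaller fold. The weaker, in an exon at chr4:32575195-32575616 (157971 bp), had folds of 5.20 and 9.48, from 15 and 20 fragments. The nearest TSS of both was that of Bach2os, a gene on the opposite strand within Bach2, at 1494 and -3744 bp, and neither counts as nearest to Bach2. A replicate 2 peak with a fold of 4.96 lay at -91 bp from the Bach2os TSS, and a replicate 1 peak with a fold of 4.87 at 569 bp. These peaks did not overlap.

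Hmox1, which encodes the inducible haem oxygenase, was the one gene of the 10 with a shared region in its promoter. Of all protein-coding genes, 3.10% had one. The region at chr8:75093410-75093735 had its summit at -51 bp from the TSS. Its fold was 3.90 in replicate 1 (11 fragments, 5.49 to 19.7) and 11.7 in replicate 2 (25 fragments, 16.2 to 36.9), a mean of 7.82 ± 5.54, and the −log10 q of the peaks was 2.80 and 21.3. The 2 replicates therefore placed it differently, at percentile 3.88 of the shared regions in replicate 1 and 64.0 in replicate 2. Its ratio of replicate 2 to replicate 1 fold, 3.01, was higher than that of 99.5% of the shared regions.

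A second Hmox1 region, 26362 bp downstream of the TSS in intron 9 of Mcm5 at chr8:75119871-75120186, had folds of 5.67 and 4.22 and was nearest to Mcm5. Of the 12 regions it alone had a lower fold in replicate 2, where its control level was 2.31 fragments, above the median of 1.22 over all peaks of that replicate. Replicate 2 also had a peak at -3827 bp with a fold of 9.48 and 20 fragments, and replicate 1 had none within 2 kb of it. Further upstream each replicate had a weak peak (folds 3.90 at -7087 bp and 3.51 at -7363 bp), and a gap of 188 bp separated them.

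Of the genes of glutathione synthesis, Gclc had a shared region and Gclm none within the window of 50 kb. This difference was absent with other windows, since neither had one with 10 kb and each had 2 with 100 kb. Gclc, the catalytic subunit of glutamate-cysteine ligase, had 1 shared region at chr9:77708942-77709269, -45378 bp from the TSS in intergenic sequence. Its folds were 6.82 and 8.57, from 20 and 18 fragments, close to the middle of all shared regions (percentile 53.8). Replicate 2 had 2 more peaks nearer to Gclc, at -38300 bp (fold 4.06) and -35398 bp (8.12), without a partner. Gclm, the modifier subunit of the same enzyme, had 4 peaks in replicate 2 alone. The strongest lay in its intron 1, 5646 bp from the TSS, with a fold of 7.22 and 15 fragments, and the nearest replicate 1 peak was 84856 bp away. The other 3 had folds between 4.60 and 5.87, and 2 of them were nearest to Dnttip2 and Mir760.

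Txnrd1, the cytosolic thioredoxin reductase, had 1 shared region beyond the end of the gene, at chr10:82900082-82900363, 39881 bp from its closest TSS. Its folds were 5.20 and 6.32, from 15 and 13 fragments, and its summits lay 111 bp apart, the widest gap of the 12 regions. The TSS of Eid3 was nearer, at 33596 bp. Replicate 2 had a peak in a Txnrd1 promoter, -172 bp from 1 of the 3 annotated TSSs, with a fold of 3.77 from 15 fragments and a −log10 q of 3.62. Replicate 1 had no peak within 39 kb of it. With Hmox1 this made 2 of the 10 genes with a promoter peak in replicate 2, where 6.50% of all genes had one, and 1 of the 10 in replicate 1, where 3.59% did.

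At Nqo1 and Srxn1 no summit of either replicate lay in the gene body or within 50 kb of a TSS. The peak lists name only sites that passed a q-value of 0.05, so that weaker enrichment at these 2 genes was not detectable at this depth. The ChIP signal is an average over the sorted cells, and binding in fewer cells cannot be told apart from weaker binding in each cell.

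The median fold of the 12 was 5.43 in replicate 1 and 9.02 in replicate 2, while that of all 10964 shared regions was 6.82 and 9.48, and 5 of the 12 lay above the median of the smaller fold, 6.50. In 11 of the 12 the fold was higher in replicate 2, as it was in 87.2% of all shared regions. Fold also depends on the control level, which was lower under most summits in replicate 2 (median 1.22 fragments) than in replicate 1 (2.08). The median number of fragments over all shared regions was 20 in replicate 1 and 21 in replicate 2. In most of the 12 regions replicate 2 had fewer fragments than replicate 1. The part of the control level in the higher folds was not tested. The median ratio of replicate 2 to replicate 1 was 1.26 at these genes and 1.39 over all shared regions. The median width was 327 bp at these genes and 440 bp over all shared regions.

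**Figure D3:**
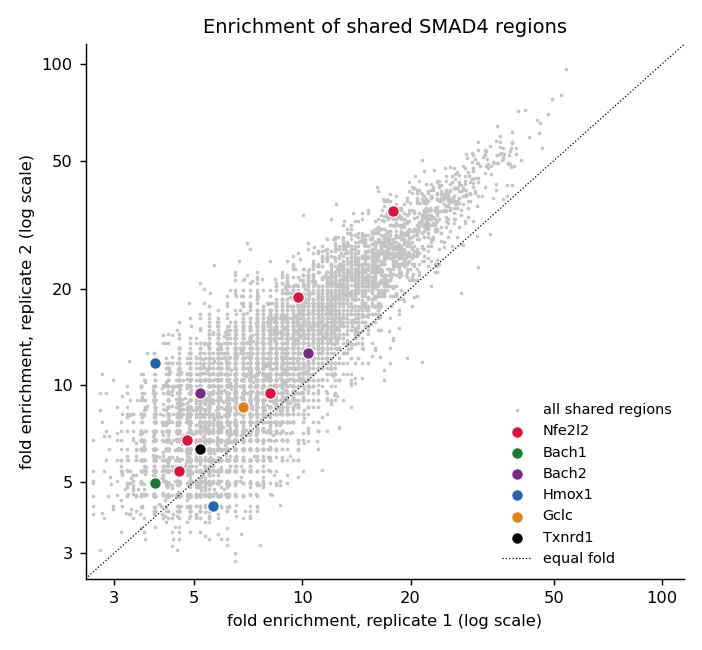
Fold enrichment in replicate 1 (horizontal axis) and replicate 2 (vertical axis), both on log scales, for all 10964 shared regions (grey) and the 12 at the named genes (colours), with a dotted line of equal fold. An Nfe2l2 region at 17.9 and 34.7 lies in the upper part of the cloud, the Hmox1 promoter region at 3.90 and 11.7 at its upper left edge, and the Hmox1 region in Mcm5 below the line.

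**Figure D4:**
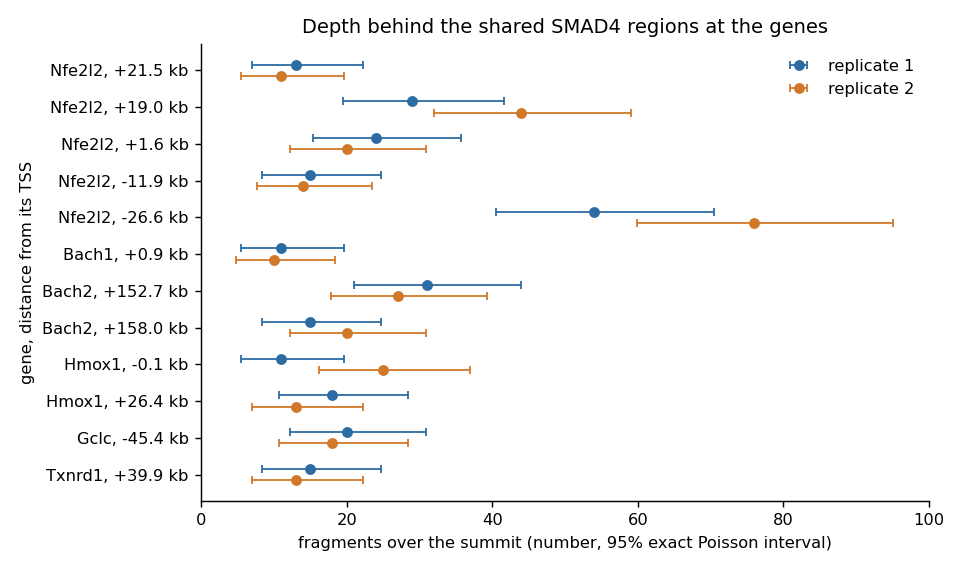
Fragments over the summit (horizontal axis, number) of the strongest peak of each replicate in the 12 shared regions (rows, with the distance of the region from the TSS of its gene), blue for replicate 1 and orange for replicate 2, with exact 95% Poisson intervals. The intervals of the replicates overlap in every row, and the highest number in both replicates is that of the Nfe2l2 region upstream of the gene (54 and 76).

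By position, 6 of the 12 regions were intronic, 4 intergenic, 1 exonic and 1 in a promoter, and 6 lay in the body of the member gene itself. Of the replicate 1 peaks at these genes, 12 of 16 had a partner in replicate 2 (75%, exact 95% binomial interval 47.6 to 92.7), where 69.4% of all replicate 1 peaks did. Of the replicate 2 peaks, 12 of 29 had a partner (41.4%, 23.5 to 61.1), where 59.2% of all did. The 17 replicate 2 peaks without a partner had folds of 3.51 to 13.5 with a median of 5.41 and a median of 11 fragments. The 12 with one had a median fold of 9.02 and 19 fragments. In replicate 1 the 4 peaks without a partner had folds between 3.63 and 4.87.

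Motif strings were searched on both strands of the 201-bp windows around the mean summits, among them the ARE core (TGACNNNGC), the NF-E2/MAF string (GCTGAGTCA or GCTGACTCA) and AP-1 (TGACTCA or TGAGTCA). The NF-E2/MAF string contains the AP-1 string and can overlap the ARE core, so that 1 stretch may count for several. The ARE core was in 1 of 12 windows, that of the Nfe2l2 region at -11937 bp (TGACCCTGC, 33 bp from the summit), and in 8.56% of all shared windows. The NF-E2/MAF string was in 1 window, the Bach2 intron region (GCTGACTCA, 68 bp from the summit), and in 1.24% of all. AP-1 was in 3 windows (8.93% of all), namely that Bach2 region, the Nfe2l2 region at 19015 bp and the Bach1 region. The half-site of nuclear receptors (AGGTCA) was in 4 windows (15.4% of all), at Nfe2l2, Bach2, Gclc and Txnrd1.

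Strings of other macrophage factors were also present. CEBP (TTGCNNAA) was in 4 windows, at Nfe2l2, Bach2, Gclc and the Hmox1 region in Mcm5, and in 40.8% of all shared windows. The Bach2 window held 2 of them (TTTGGCAA and TTGTGCAA) within 18 bp of the summit. RUNX (TGTGGTT or TGTGGTC) was in 2 windows (16.3% of all), STAT5 (TTCNNNGAA) in 1, the Bach1 region (8.07%), the ETS string CAGGAAGT in 1, the Bach2 region (5.63%), and the E-box CACGTG in 1, the Hmox1 promoter (3.65%). The PU.1 string GAGGAAGT was in none (8.01% of all). The SMAD string GTCTGG was in 1 window, the Hmox1 region in Mcm5 (11.2% of all), and the palindrome GTCTAGAC in none (0.465%). In all, 9 of the 12 windows held at least 1 of the strings, and so did 77.3% of all shared windows. A match is a description of the letters and does not show a bound factor.

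Promoter sequences from RefSeq (GRCm38.p6, 250 bp before to 50 bp after the TSS) were matched for 8 of the 10 genes, with Hmox1 and Gclc unmatched. The ARE core was in those of Nfe2l2, Gclm, Txnrd1 and Srxn1, 4 of the 8 genes, and in 12.4% of the 32851 promoters of the table. The 8 genes had 10 promoters, so that a share of genes and a share of promoters are unlike measures here. The NF-E2/MAF string was in that of Srxn1 (0.822% of all promoters), where it began 45 bases before the TSS on the reverse strand (TGAGTCAGC). A further AP-1 string lay 102 bases before that TSS. Of the 4 genes with an ARE core Txnrd1 alone had a peak in a promoter, in replicate 2. The summit window of that peak held no ARE core. The bases printed above for Srxn1 held none either, so that its match was not within them.

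The wider pathway was described with a list of 44 further genes for NRF2 turnover and partners, glutathione, thioredoxin and peroxiredoxins, superoxide and peroxide removal, NADPH supply, haem and iron, and efflux. Of these, 29 had a shared region in their window (65.9%, beside 39.1% of all protein-coding genes) and 24 had one nearest to them (54.5%, beside 20.0%). The list had 67 shared regions summed over its genes, at 13.4 per Mb of window, where the markers of other cell types described below had 10.7. A shared region in the promoter was found at 8 of the 44 genes, beside 3.10% of all protein-coding genes. No peak was called at 7 of the 44, and the share of all genes without a peak was not computed. As with the 10 genes themselves, the list was made with earlier results of these peaks known and was not tested.

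Among the genes of NRF2 turnover and partners, 5 of 9 had a shared region (55.6%, beside 39.1% of all protein-coding genes). For 3 of the 9 at least 1 was nearest (33.3%, beside 20.0%). Mafg, a small MAF partner of NRF2 and BACH1, had a region in an intron at 2905 bp from its TSS with folds of 21.1 and 43.3, and Maff had 4 shared regions, 2 of them nearest. Cul3 had 1 shared region nearest. Sqstm1, whose product p62 binds KEAP1, had 2 and Gsk3b 1, all nearer to another gene's TSS. Mafk, Btrc, Nfe2l1 and Rbx1 had none.

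Among glutathione genes, Gsr, the glutathione reductase, had 6 shared regions, 5 of them nearest, with the strongest of these in an intron at 13224 bp (folds 17.5 and 21.4). Slc7a11, the cystine importer that feeds glutathione synthesis, had 4, the strongest in its promoter at -88 bp with folds of 12.3 and 24.8. Gpx1, a glutathione peroxidase, had 3, the strongest nearest one at 3476 bp with 12.8 and 23.0, and Mgst1 had 2, the stronger in its promoter at -357 bp with 12.6 and 28.9. Gstm1 had 4 with 1 nearest, Gss 1 and Gstp1 1, while Gpx3, Gpx4, Gsta3 and Gsta4 had none.

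Prdx6, the lung-abundant peroxiredoxin that also handles surfactant phospholipids, had 2 shared regions, the stronger in its promoter at -346 bp with folds of 17.2 and 33.4. Sesn2 had 3, Prdx1 2, Txn1 1 and Txnrd2 1, and Prdx2, Prdx5 and Txnip, with peaks in replicate 2 alone, had none. Sod2, the mitochondrial superoxide dismutase, had 1 in an intron at 2375 bp with 18.6 and 33.4, Sod1 had 2 and Cat none. Of the NADPH genes, Pgd had 5 with 3 nearest, the strongest of these 3 in an intron at 10187 bp (19.8 and 42.9), Taldo1 had 1 at 2182 bp (14.3 and 27.1), Tkt 2, G6pdx 1 and Me1 none.

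All 4 genes of haem and iron had a shared region nearest to them (100%, beside 20.0% of all protein-coding genes). In the other roles of the list this share ran from 33.3% to 66.7%. The roles hold few genes each, and no test was made. Fth1, the ferritin heavy chain that stores the iron freed from haem, had 7 with 5 nearest, Ftl1 had 3, and the biliverdin reductase genes Blvra and Blvrb had 2 and 1. The strongest at Blvra, in an intron at 9466 bp, had folds of 11.7 and 17.6. Of the efflux and detoxification genes, Abcc4 had 2 and Abcc1 had 1, and Ephx1 and Osgin1 had no peak. The values given for the list are those of its 10 genes with the highest smaller fold at a nearest region.

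**Figure D5:**
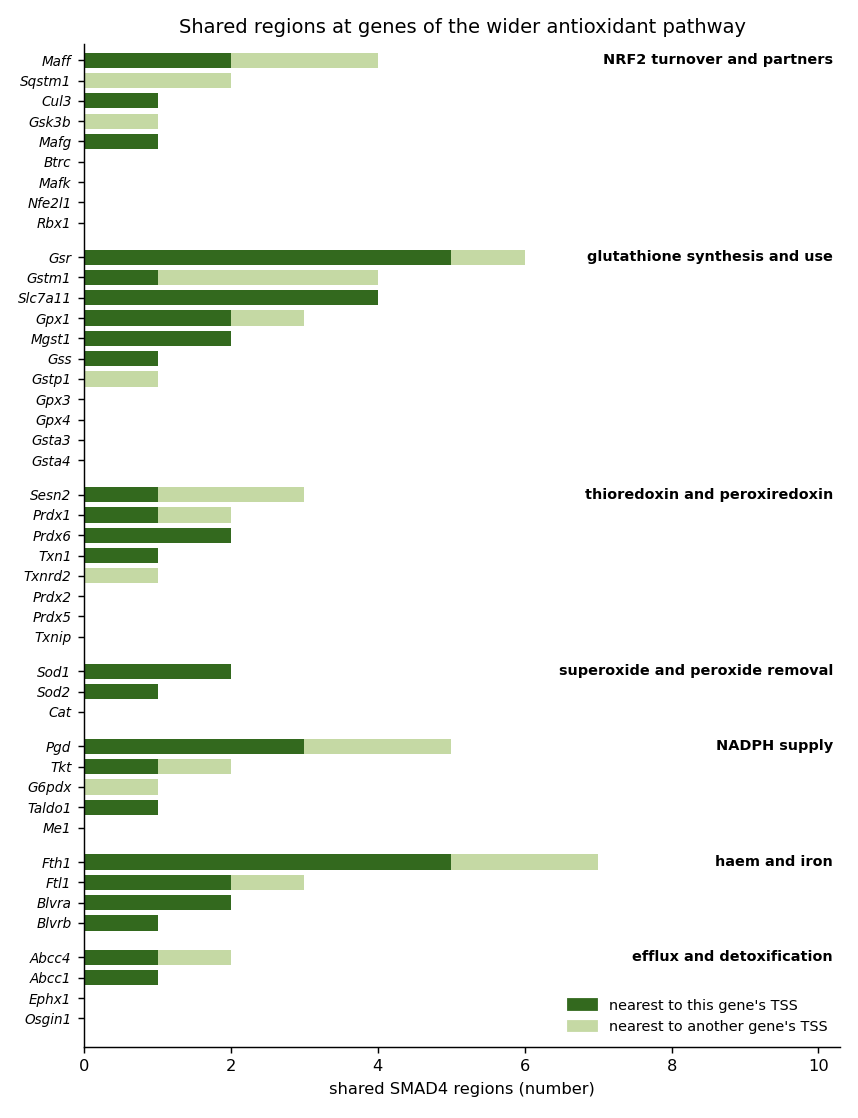
Number of shared SMAD4 regions (horizontal axis) at each of the 44 genes of the wider pathway list (rows, grouped by role), in dark green where the gene's own TSS was the nearest and in light green where another gene's was. Fth1 with 7 and Gsr with 6 stand highest, and 15 genes have no bar.

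The cell label was set beside marker genes, although binding of SMAD4 near a gene is not its expression. All 10 AM marker genes listed (among them Pparg, Siglecf, Itgax and Marco) had a shared region, 9 of them nearest, at 37.0 regions per Mb of window. Of 13 markers of T cells, B cells, neutrophils, eosinophils, epithelium and endothelium, 5 had one (38.5%, beside 39.1% of all genes) and 4 had one nearest (30.8%, beside 20.0%), at 10.7 per Mb. The 4 with a nearest one were S100a8 with 3 shared regions, Scgb1a1 with 5, Pecam1 with 3 and Prg2 with 1. The strongest nearest one at S100a8, a neutrophil gene, lay in its promoter at -87 bp with folds of 13.6 and 30.7, and that at Scgb1a1, a club cell gene, in its promoter at -76 bp with 7.47 and 11.3. The 10 NRF2, BACH and antioxidant genes had 10.5.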

How the data were processed

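Peak lists of 2 SMAD4 HT-ChIPmentation libraries of mouse AMs were used, and 2 input libraries entered as control. The authors trimmed reads (Cutadapt), aligned them to mm10 (Bowtie2), filtered them (SAMtools) and called peaks with MACS3 in each library on its own, against input, keeping those with a q-value under 0.05. The sources used here do not say which input served which library. Each deposited peak has a fold ratio over control, a −log10 p-value, a −log10 q-value, a score and a summit position. These are the authors' values, and the score was not used.

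Fragments at each summit and the control level were solved from the fold and p of a peak (100% whole within 0.02), since sequencing totals were not used here. Medians were 17 and 14 fragments per peak, and intervals are exact 95% Poisson or binomial ones. On simulated peaks the solution recovered the fragments put in. Genes were taken from RefSeq (GRCm38, 20 chromosomes), which has 45657 curated transcripts for 26089 genes, and no peak passed a chromosome end. Where peaks of the lists overlapped by 1 bp or more, their union was taken as a shared region, with the mean of the summits as its summit and with the fold of the strongest peak of each replicate. The nearest gene had the closest TSS.

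No test was made, since the series has 1 condition. The members, gene lists and motif strings were chosen with earlier results of these data known. All 10 members were named, with the shared regions nearest to each (at most 3 in full by the smaller fold), the strongest nearest to another gene, and promoter peaks. Of the pathway list, the genes with a nearest shared region were named, with values for the 10 of highest smaller fold, and each other gene by its count. Summit windows of the strongest nearest region per member and of promoter peaks were printed, that of Hmox1 excepted. Python 3.11.15, numpy 2.4.6, pandas 2.3.3, scipy 1.17.1, pysam 0.24.0 and matplotlib 3.10.9 were used.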

Additional observations from a re-analysis of the deposited data

How the results depend on the processing

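The number of members with a shared region stayed between 4 and 8 under every alternative tried (stricter q or fold limits, stricter overlap, other windows, predicted transcripts, and 1 replicate alone), with 6 as reported and 6 to 8 when either replicate was left out. The number with a nearest shared region, 4, was 2 at a q-value of at most 0.001, 2 at a minimum fold of 5 and 2 with 50% reciprocal overlap, and 4 to 6 without a replicate. The 12 shared regions became 7 at a minimum fold of 5, 7 with a window of 10 kb, 29 with a window of 100 kb, and 16 to 29 peaks without a replicate, so that replicate 2 alone gave more than 1.5 times as many. The 16 peaks of replicate 1 became 8, 9 and 39 at a minimum fold of 5 and with windows of 10 and 100 kb, and the 29 of replicate 2 became 19, 15 and 54. The pathway counts moved by less than 1.5 times throughout (32 to 35 genes with a region and 27 to 28 with one nearest when a replicate was left out). So did the shares with a partner, the median fold and the number of windows with any motif string. Counts of several single strings moved more. With 50 bp each side of the summit, AP-1 fell from 3 windows to 1 and NF-E2/MAF from 1 to 0. CEBP and the nuclear receptor half-site fell from 4 to 2. With 200 bp each side the ARE core rose from 1 to 3. The SMAD string GTCTGG, in 1 window as reported, was in 0 with 50 bp each side and in 3 with 200 bp. Around the summits of replicate 2 it was in 2. STAT5 stayed in 1 window and PU.1 in none. By gene, a minimum fold of 5 left 3 of the 5 regions of Nfe2l2 and none at Bach1 or Hmox1. The Bach1 region and the Hmox1 promoter region were also lost at a q-value of at most 0.001 and with 50% reciprocal overlap. Each of these settings left 1 of the 2 Hmox1 regions, the one in Mcm5. The Txnrd1 region was lost with 50% reciprocal overlap, with summits within 100 bp and with a window of 10 kb. The Gclc region was lost with a window of 10 kb. That window left 3 regions at Nfe2l2. With a window of 100 kb, Gclc and Gclm had 2 shared regions each. No paired analysis was possible because the series has 1 condition and the labels give no replicate numbers. With 10 to 25 fragments at most summits, a site seen in 1 replicate alone does not show that it was unbound in the other.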
